A study of Drosophila melanogaster with 3 samples.

Results

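The nuclear genes of oxidative phosphorylation encode most subunits of the respiratory chain, in which complexes I and II pass electrons to complex III, cytochrome c carries them on to complex IV, and complex V, the ATP synthase, makes ATP from the resulting proton gradient. A small set of subunits is encoded by mitochondrial DNA and was not part of this gene set. Deaf1 is a transcription factor of the SAND domain family that recognises DNA containing TTCG. Its positions on fly chromatin were recorded by ChIP-seq of a C-terminal GFP fusion, recovered with an antibody to GFP. The material was whole embryos of a transgenic Drosophila melanogaster line, of pooled sex and aged 0 to 24 hours, with 3 biological replicates in 1 group and no other condition. Whole embryos mix all tissues and stages of that interval, so the position of the tagged protein in a given cell type cannot be read from these lists.

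The gene set was defined by symbol, with earlier results of these data known: ND- genes (complex I), Sdh genes (II), UQCR genes with RFeSP and Cyt-c1 (III), COX genes (IV), ATPsyn genes (V) and Cyt-c-p. It held 77 of 13945 protein-coding genes, with 34 in complex I, 4 in complex II, 9 in complex III, 14 in complex IV, 15 in complex V and Cyt-c-p on its own. Symbols that hold a full stop, and subunit genes with names of another kind such as blw, fall outside this rule. A gene was called bound when a summit of the reproducible peak set lay within 500 bp of one of its transcription start sites (TSSs). That set holds 8667 peaks passed by the irreproducible discovery rate (IDR), and each peak has a signal given by the authors' caller. A longer relaxed list of 30000 peaks, called on the pooled replicates, was read in the same way. For replicate values, the signal of the replicate's own peak at the summit was divided by the median signal of that replicate's list (54.4, 52.7 and 41.1 in replicates 1, 2 and 3). The number of reads is unknown, and the intervals below cover only the number of genes.

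Tagged Deaf1 was found at 16 of the 77 genes (20.8%, 95% exact interval 12.4% to 31.5%), beside 27.8% of all protein-coding genes, a share that lies inside this interval. The bound genes were spread over the chain: 6 of 34 in complex I (17.6%), 1 of 4 in complex II, 1 of 9 in complex III (11.1%), 4 of 14 in complex IV (28.6%), 3 of 15 in complex V, and Cyt-c-p. The exact interval of each complex held the share of all genes, from 6.76% to 34.5% in complex I and from 8.39% to 58.1% in complex IV. No difference between complexes can be read from counts of this size. In the replicates' own top 8667 peaks, 13, 17 and 12 of the 77 genes were bound in replicates 1, 2 and 3, a mean share of 18.2% ± 3.44 (SD, n = 3) beside 27.8% ± 0.954 of all genes (SD, n = 3). The share of all genes lay just above the exact interval of the set in replicate 1 (27.2%, interval 9.31% to 27.1%) and above it in replicate 3 (27.2%, interval 8.32% to 25.6%), and inside it in replicate 2. Without the 17 copies with L-ending names described next, the share in the IDR set was 26.7%, and the share of all genes lay inside the interval in each replicate. None of these copies was bound in the IDR set or in a top list, so leaving them out could only raise the share. The share of all genes was kept over every gene, so the comparison is not like for like. Of the 77 genes, 11 were bound in the top list of every replicate, beside 23.4% of all genes, and all 11 were among the 16 of the IDR set. By chromosome arm, 6 of 18 genes on 3R were bound (all genes 26.5%), 4 of 10 on X (30.2%), 2 of 15 on 2L (26.3%), 2 of 15 on 2R (28.5%) and 2 of 17 on 3L (28.8%). Neither of the 2 on chromosome 4, ND-49 of complex I and ATPsynbeta of complex V, was bound, beside 8 of all 80 genes there (10%).

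**Figure D1:**
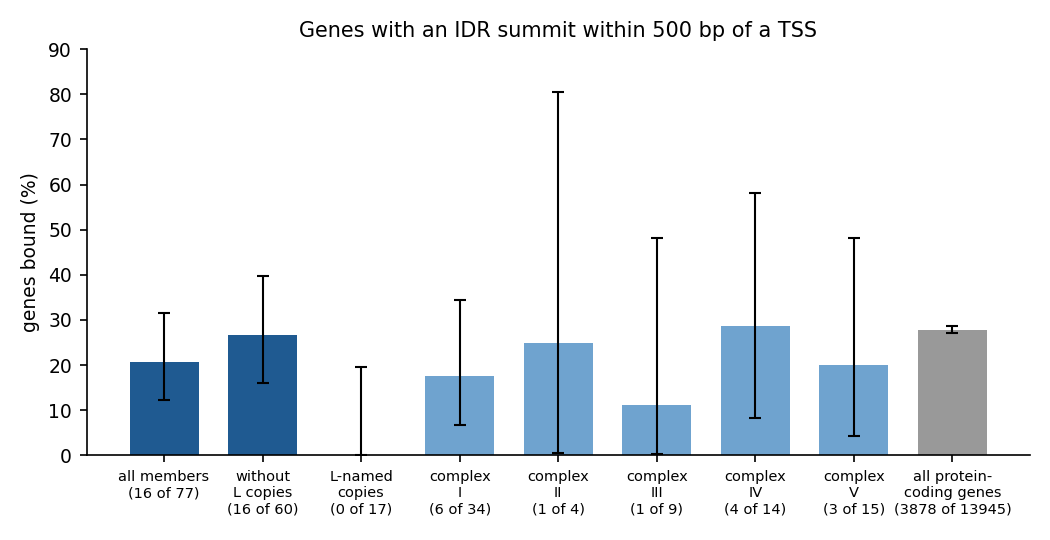
The bars give the percentage of genes with an IDR summit within 500 bp of a TSS, for the oxidative phosphorylation genes as a whole, with and without the copies whose names end in L, for each complex, and for all protein-coding genes; error bars are 95% exact intervals over genes and counts stand under the bars. The share was 20.8% for the 77 genes, 26.7% without the L-named copies and 0 of 17 for those copies, beside 27.8% of all genes.

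The 77 genes include 17 copies named for another subunit gene with an L at the end, and none of these was bound. Several such duplicates of fly respiratory chain genes are known to be expressed mainly in the testis. Of the 17, 0 had an IDR summit within 500 bp of a TSS (exact upper bound 19.5%), and the nearest IDR summit lay 630 bp to 337821 bp away, with a median of 10132 bp. In the relaxed pooled list 1 of the 17 had a peak, ATPsynCF6L, at a low signal of 81.4 and at -295 bp from the TSS. Without the copies, 16 of 60 genes were bound (26.7%, 95% exact interval 16.1% to 39.7%). The 16 genes for which the copies are named, 3 of them outside the symbol rule, had 5 bound: ND-20, ATPsynCF6, COX7C, levy (cytochrome c oxidase subunit 6A) and cype (subunit 6C). The other 11 were COX4, COX5B, COX7A, ND-24, ND-49, ND-51, UQCR-11, UQCR-14, ATPsynbeta, ATPsynG and sun, and ND-51 has 2 copies, ND-51L1 and ND-51L2. The remaining copies without a pooled peak were ND-20L, ND-24L, ND-49L, UQCR-11L, UQCR-14L, COX4L, COX5BL, COX6AL, COX6CL, COX7AL, COX7CL, ATPsynbetaL, ATPsynepsilonL and ATPsynGL. ATPsynCF6L had a peak in the list of each replicate, at 0.443, 0.549 and 0.684 times the list median in replicates 1, 2 and 3. COX7CL was the copy closest to an IDR summit, at 630 bp, and replicate 2 alone listed a weak peak at COX7CL (0.775 times the list median).

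The number of annotated start sites moved with these shares. Among all genes 19.7% of those with 1 TSS were bound, 42.0% of those with 2 and 68.8% of those with 3 or more. Of the L-named copies 16 had a single TSS. Among the 60 other genes, 5 of 29 with 1 TSS were bound (17.2%), 9 of 27 with 2 (33.3%) and 2 of 4 with 3 or more. The part of TSS number in the absence of peaks at the copies was not tested.

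ND-ASHI and Cyt-c-p stood well above the rest. ND-ASHI (FBgn0029888), a subunit of complex I, had the strongest peak of the set, on chromosome X from 6679137 to 6679948 (dm6), with a pooled signal of 2019.5. The replicates gave 14.9, 12.9 and 13.2 times the list median in replicates 1, 2 and 3, a mean of 13.7 ± 1.11 (SD, n = 3). The summit lay 475 bp upstream of the nearest ND-ASHI TSS but 47 bp from a TSS of Fum1, the fumarase of the tricarboxylic acid cycle, which is transcribed in the opposite direction, and it stood in an intron of Fum1. ND-ASHI also had a second, weaker IDR summit of its own, at -21 bp from a TSS, with a signal of 279.8. Cyt-c-p (FBgn0284248), which encodes the cytochrome c of most tissues, had its peak on 2L from 16719554 to 16720273, in intergenic sequence 42 bp upstream of the TSS, with a signal of 1932.2. The replicates gave 11.02, 16.1 and 12.7 times the median, a mean of 13.3 ± 2.59 (SD, n = 3). The order of the pair is within their spread, whereas their lowest replicate value, 11.02, lay above the highest of any other bound gene, 7.40 in replicate 2 at ND-MWFE.

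The sequence under these and 4 other summits is shown because the words found there differ from gene to gene. Each is the part of the 101 bp around the summit that lies outside annotated exons, from RefSeq's genome on the dm6 build and read on the plus strand. Capitals mark TTCG on either strand (with the fifth base where it is TTCGG), the word GGTCACAC, and the NRG words explained further on.
ND-ASHI and Fum1, chrX:6679543-6679639: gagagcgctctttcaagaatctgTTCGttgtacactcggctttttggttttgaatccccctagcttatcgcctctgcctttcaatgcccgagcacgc
Cyt-c-p, chr2L:16719840-16719931: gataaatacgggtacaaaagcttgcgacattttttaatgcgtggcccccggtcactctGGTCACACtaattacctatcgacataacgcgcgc
COX5A and glo, chr3R:11819464-11819547: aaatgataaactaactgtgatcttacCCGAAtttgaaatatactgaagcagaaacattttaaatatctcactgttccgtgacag
ND-42 and Cchl, chr3R:22027481-22027575: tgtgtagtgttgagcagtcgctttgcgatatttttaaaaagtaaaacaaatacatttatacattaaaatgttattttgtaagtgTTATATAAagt
ND-MNLL and p115, chrX:7893848-7893948: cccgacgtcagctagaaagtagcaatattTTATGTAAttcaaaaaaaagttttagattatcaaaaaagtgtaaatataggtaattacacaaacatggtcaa
ATPsynCF6 and Sec13, chr3R:23356163-23356263: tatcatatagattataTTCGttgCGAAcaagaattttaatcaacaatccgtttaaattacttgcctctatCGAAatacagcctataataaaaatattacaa

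Complex I had 6 bound genes, ND-ASHI among them. ND-MWFE, another small accessory subunit, followed with 4.91, 7.40 and 3.86 times the list median in replicates 1, 2 and 3 (5.39 ± 1.82, SD, n = 3). Its summit on 2R lay 168 bp upstream of the ND-MWFE TSS and 53 bp from that of TppII (a tripeptidyl peptidase). ND-SGDH had 2.40, 5.53 and 3.21 times the median (3.71 ± 1.63), with the summit 1 bp from its TSS on 3L and a second IDR summit at -204 bp. ND-42 had 3.03, 4.74 and 2.79 times the median (3.52 ± 1.06). Replicate 2 was the highest at each of these 3 genes, and the values of the 3 genes overlapped. The ND-42 peak, on 3R from 22027437 to 22027734, lay between ND-42 and Cchl, the lyase that attaches haem to cytochrome c, 184 bp from the ND-42 TSS and 45 bp from that of Cchl. The weakest were ND-MNLL, at 2.07 ± 0.657, and ND-20, a core subunit of the electron path, at 1.77 ± 0.546 times the median (SD, n = 3 each). Of the 28 complex I genes without an IDR peak, 7 had a relaxed pooled peak, from ND-B22 at a signal of 219.6 and ND-B18 at 163.7 down to ND-75, the largest nuclear-encoded subunit, at 60.3.

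Complexes II and III had 1 bound gene each. SdhD, a membrane anchor of succinate dehydrogenase, had 2.08, 2.51 and 2.05 times the list median (2.22 ± 0.257, SD, n = 3), with its summit on 3R in the 5′ end of its own transcript, 24 bp downstream of the TSS. SdhC, another anchor subunit, and SdhB, the iron-sulfur subunit, had relaxed peaks alone, at signals of 202.3 and 151.1, and SdhA, the flavoprotein subunit, had none in the pooled list. RFeSP, the Rieske iron-sulfur protein of complex III, had 2.63, 2.11 and 2.96 times the median (2.56 ± 0.429, SD, n = 3), 78 bp upstream of its TSS on 2L. UQCR-14, UQCR-Q and Cyt-c1 had relaxed peaks at 251.5, 193.8 and 109.7, and the core proteins UQCR-C1 and UQCR-C2 had no pooled peak. Replicates 1 and 2 nevertheless listed a peak at UQCR-C2, at 1.98 and 1.45 times their medians.

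Complex IV had COX6B, COX7B, COX5A and COX7C bound. COX6B, a peripheral subunit, was the strongest with 4.32, 4.95 and 4.12 times the list median (4.46 ± 0.435, SD, n = 3). Its summit on X lay 18 bp inside the transcript, and 3 other genes, CG18809, CG33932 and Rpp20 (a protein of ribonuclease P), have a TSS within 114 bp of it. COX7B had 2.70, 3.62 and 2.60 times the median (2.97 ± 0.562, SD, n = 3), and its values lay below all of those of COX6B. COX5A had 2.58 and 2.61 times the median in replicates 1 and 3 and no peak over the summit in replicate 2. COX7C had 1.89, 1.83 and 1.08 times the median (1.60 ± 0.450, SD, n = 3), and was bound in the top list of 0 replicates. COX5B, at a pooled signal of 250.9, fell just short of the set, and COX4, COX7A and COX8 had no pooled peak.

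In complex V the ATPsyngamma, ATPsynC and ATPsynCF6 genes were bound. ATPsyngamma encodes the central stalk and ATPsynC the subunit of the rotating ring in the membrane. ATPsyngamma had 1.62, 2.51 and 3.87 times the list median (2.67 ± 1.13, SD, n = 3), with the summit 96 bp upstream of its TSS and 40 bp from that of its neighbour yata on 3R. ATPsynC had 2.57, 3.43 and 2.63 times the median (2.88 ± 0.481, SD, n = 3), 22 bp from its TSS. ATPsynCF6, a coupling factor of the stalk, had 1.83, 2.10 and 1.38 times the median (1.77 ± 0.365, SD, n = 3), and its summit lay closer to Sec13 (65 bp) than to its own TSS (149 bp). The values of ATPsynC all lay above those of ATPsynCF6. The place of ATPsyngamma depended on the peak read: the strongest replicate peaks within 500 bp of its TSSs had 3.94, 4.14 and 3.87 times the median, above each value of ATPsynC, while those at the summit overlapped both genes. ATPsyndelta had a relaxed peak at a signal of 72.96 and ATPsynD at 45.2, while ATPsynbeta, the catalytic subunit, ATPsynB, ATPsynE, ATPsynF, ATPsynG and ATPsynO had none. At ATPsynF replicate 2 alone listed a peak, of 3.46 times its median.

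**Figure D2:**
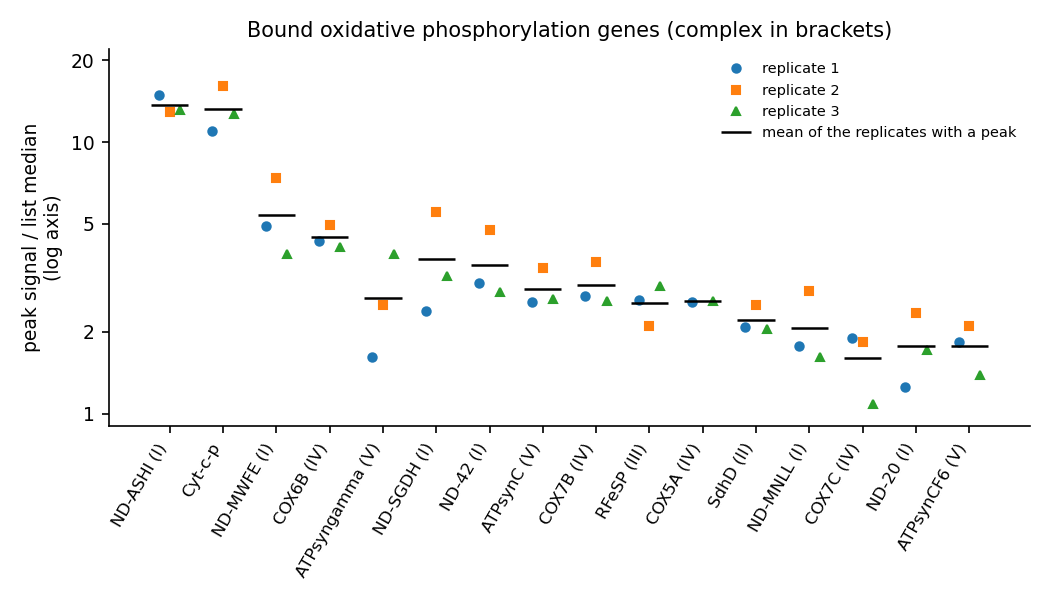
Each point is a replicate's peak signal over the median of its own list, on a log axis, at the strongest IDR summit of each of the 16 bound genes in order of pooled signal, and the black line is their mean. ND-ASHI and Cyt-c-p lie at 11.02 and above in each replicate and the other 14 genes at 7.40 and below; COX5A has no peak in replicate 2.

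The median peak signal was lower at the bound genes of the chain than at bound genes in general. The median pooled signal of the strongest promoter summit was 427.8 over the 16 genes (range 265.01 to 2019.5) and 740.9 over all 3878 bound genes, and 3 of the 16 lay above that median of all bound genes. For the 10 of the 16 with an opposite-strand TSS within 500 bp upstream, the median was 537.6, beside 584.02 over all bound genes of that kind. For the 6 without, it was 353.3, beside 864.9. These groups are small, and the part of promoter type in the gap was not tested. Some of the 16 were close to the limit of the IDR set, whose lowest signal was 256.1. Just inside it lay COX7C at 276.3, ND-20 at 266.1 and ATPsynCF6 at 265.01, and just outside it UQCR-14 at 251.5 and COX5B at 250.9. At the edge of the 500 bp window, ND-13A and ND-B15 were left unbound with their nearest IDR summits at 507 and 530 bp.

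The relaxed list extends the description to peaks below the limit. In the relaxed pooled list 32 of the 77 had a summit within 500 bp of a TSS (41.6%, 95% exact interval 30.4% to 53.4%), beside 39.6% of all protein-coding genes. The counts were 32, 33 and 30 in the relaxed lists of replicates 1, 2 and 3, beside 41.7%, 42.1% and 40.7% of all genes. Of the 16 genes with a relaxed but no IDR peak, 13 had a peak in each of the 3 replicate lists, and of the 45 with no pooled peak, 41 had none in any replicate list. The pooled and replicate lists come from the same reads, so these counts are no independent support for the peaks. The same counts over all genes are not given here. By complex, the relaxed count was 13 of 34 in complex I, 3 of 4 in complex II, 4 of 9 in complex III, 5 of 14 in complex IV and 6 of 15 in complex V. The median best signal was 258.2 over the 32 genes and 458.7 over all genes with a relaxed peak. A peak found in the relaxed list alone is given here as a listed signal and not as a bound site.

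**Figure D3:**
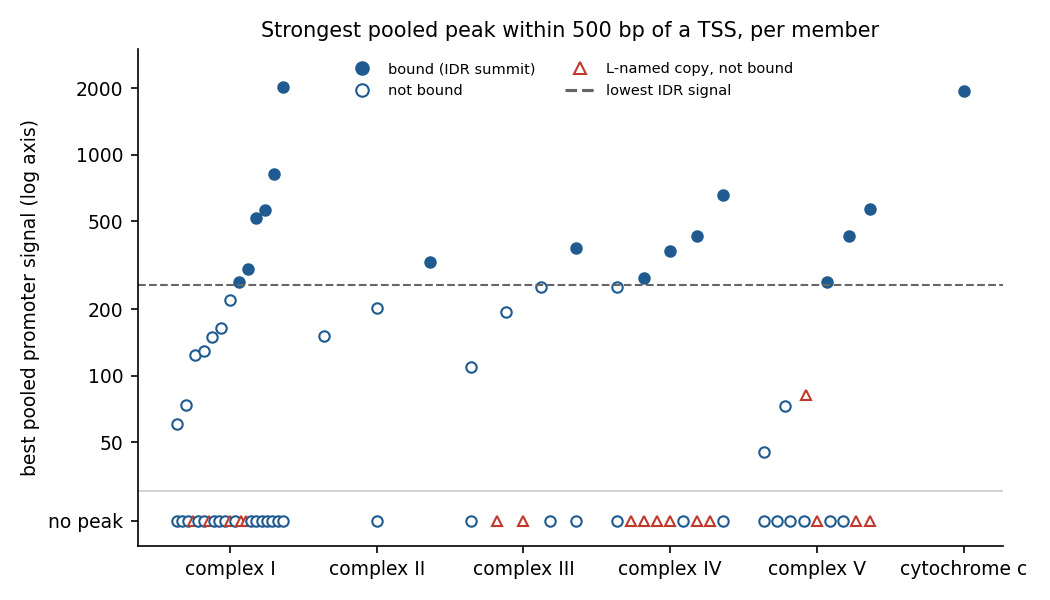
Each marker is 1 of the 77 genes, placed by complex and by the signal of its strongest pooled peak within 500 bp of a TSS on a log axis, with genes that have no pooled peak at the bottom; filled markers are bound, triangles are L-named copies and the dashed line is the lowest IDR signal of 256.1. All bound genes but ND-ASHI and Cyt-c-p lie between 265.01 and 814.1, and of the 17 triangles 16 have no peak.

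Many of the bound summits lay in promoters that face a second gene. Of the 16 bound genes 10 had a head-to-head partner, an opposite-strand gene whose TSS lies within 500 bp upstream: Fum1, TppII, CG33932, yata, RhoGAP68F, Cchl, Sec3 (an exocyst subunit), glo (an RNA-binding repressor), p115 (a Golgi tether) and Sec13 (a coat protein). Such partners stood beside 36 of the 77 genes, compared with 3815 of all 13945, so they were common in the set before any call of binding. Of the 36, 10 were bound (27.8%), against 6 of the 41 without a partner (14.6%). Without the L-named copies these were 10 of 33 (30.3%) and 6 of 27 (22.2%). Among all genes the shares were 33.2% with a partner and 25.8% without, so the difference ran the same way. Also, 10 of the 16 summits (62.5%) lay within 500 bp of the TSS of another protein-coding gene, beside 33.1% over all bound genes. The part of the set's many paired promoters in this share was not tested. At 5 of the 16 (31.3%) the other gene's TSS was the nearer one, beside 15.1% over all bound genes. These 5 were ND-ASHI, ND-MWFE, ATPsyngamma, ND-42 and ATPsynCF6. Which gene of such a pair the tagged protein acts on cannot be told apart from peak positions.

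The summits lay upstream of the TSS at 13 of the 16 genes, and within 100 bp of it at 11. Their median position was -81.5 bp, beside -67 bp over all bound genes, of which 72.6% had the summit upstream. The exceptions were COX6B and SdhD, at 18 and 24 bp downstream, and COX7C, in an intron 237 bp downstream.

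**Figure D4:**
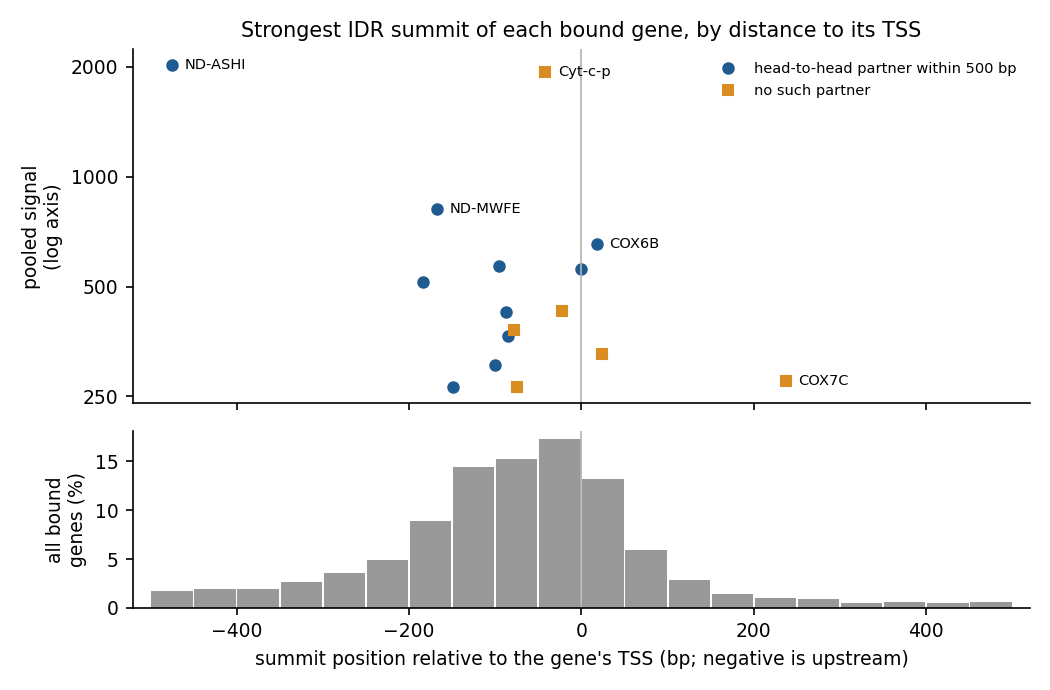
The upper panel places each of the 16 bound genes by the distance of its strongest IDR summit from its nearest TSS (negative is upstream) and by pooled signal on a log axis, with circles for genes that have a head-to-head partner within 500 bp and squares for the others; the lower panel gives the percentage of all 3878 bound genes per 50 bp. Of the 16 summits, 13 lie upstream, and ND-ASHI is the most distant at 475 bp.

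The Deaf1 word TTCGG was at 3 of the 16 summits (18.8%), within 50 bp on either side and on either strand, beside 29.96% over all bound genes. These were COX5A and SdhD, with the word 22 bp from the summit, and COX7C, 46 bp away. ND-ASHI and Cyt-c-p held none in these windows. The shorter TTCG, which every TTCGG contains, was at 10 of the 16 (62.5%) and at 68.4% of all bound genes. GAGAG, the word of the GAGA factor, was at 2 of the 16 summits, beside 20.4%. In 6 of the 16 windows (37.5%) at most 30 of the 101 bases were G or C, beside 19.1% over all bound genes. These 6 were ND-MWFE, ND-SGDH, ND-42, COX7B, ND-MNLL and ATPsynCF6, and each had a head-to-head partner. Over all bound genes such windows made up 34.7% of those with a partner and 11.5% of those without.

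Words of other promoter factors were sought in a fixed window from 250 bp upstream to 50 bp downstream of each gene's most upstream TSS, on both strands. GGTCACAC, the word of M1BP, a zinc-finger protein found at promoters of many housekeeping genes, was in 6 of the 16 bound promoters and 11 of the 61 unbound ones. Together that is 17 of 77 (22.1%, 95% exact interval 13.4% to 33.0%), beside 7.71% of all promoters and 11.0% of those of 73 mitochondrial ribosomal protein genes. The bound 6 were COX5A, COX7B, ATPsynC, ND-MWFE, RFeSP and Cyt-c-p, and only at Cyt-c-p did the word lie in the summit window, as printed above. Of the L-named copies COX7AL alone held it. TATCGAT, the core of the DNA replication-related element, was in 1 of the 16 bound promoters (ND-MNLL, 95% exact interval 0.158% to 30.2%). It was in 17 of the 61 unbound ones (27.9%), a share inside that interval. The word was in 18.2% of all promoters, 18.7% of those of all bound genes and 32.9% of those of mitochondrial ribosomal protein genes. TTCGG was in 7 of 16 bound (43.8%) and 20 of 61 unbound promoters (32.8%), beside 38.9% of all promoters. The median G and C content of these windows was 36.5% in the bound and 31.9% in the unbound promoters, beside 37.9% over all genes.

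The nuclear respiratory gene (NRG) element is a word described in promoters of fly nuclear genes for respiration. It was searched here only as the 8-letter words TTACATAA, TTATGTAA, TTACGTAA and TTATATAA. No flanking bases were required, and a longer form of the element was not searched. Such a word was in 5 of the 77 promoters (6.49%), beside 5.18% of all promoters. The 5 were ND-42, ND-SGDH and ND-MNLL, which were bound, and ND-30 and ND-49, which were not, so complex I held all of them. In the summit windows it was at 3 of the 16 (ND-42, ND-MNLL and COX7C), beside 1.68% over all bound genes. These words are rich in A and T, as are the summits at ND-42 and ND-MNLL, and the part of base composition in this count was not tested.

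Other genes of mitochondrial respiration gave the following counts, to be read beside the 27.8% of all genes. The lists of these genes were chosen with earlier results of these data known. Of 15 genes listed for oxidative phosphorylation outside the symbol rule, not all of them subunits, 5 were bound: blw, the alpha subunit of complex V, at 5.24 ± 1.43 times the list median, levy at 4.81 ± 1.57, cype at 2.55 ± 0.839, CG13551 at 1.64 ± 1.02, and Cyt-c-d, the cytochrome c of the male germline, at 10.1 ± 1.46 (SD, n = 3 each). Those not bound included SdhAL, SdhBL, Cyt-c1L and COX6AL2, which also carry L names. The Cyt-c-d summit lay 343 bp downstream of its TSS. Of 18 tricarboxylic acid cycle genes 7 were bound (38.9%), led by Fum1 with the peak it shares with ND-ASHI, then Idh3g (an isocitrate dehydrogenase subunit) at 9.92 ± 2.17, Ogdh (oxoglutarate dehydrogenase) at 8.84 ± 1.22 and ScsbetaG at 3.49 ± 0.738 times the median (SD, n = 3 each), with Idh, Scsalpha1 and CG5214 below these. Of the 18 genes 11 have 2 or more TSSs. Among all genes 42.0% of those with 2 TSSs and 68.8% of those with 3 or more were bound.

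Carriers and pores of the mitochondrial membranes were bound at 4 of 16: MCU, the calcium uniporter, at 23.6 ± 4.29, Mpcp2, a phosphate carrier, at 5.47 ± 0.369, Ucp4A at 5.38 ± 1.498 and colt at 4.57 ± 1.01 times the list median (SD, n = 3 each). The ADP/ATP exchanger sesB and the channel porin were not. Of 13 genes for mitochondrial DNA and its expression 2 were bound (15.4%), mtSSB at 4.84 ± 0.615 and mtTFB1 at 2.98 ± 0.428 times the median (SD, n = 3 each), while TFAM and PolrMT were not. The summits at mtSSB and mtTFB1 lay at -275 and -432 bp from the TSS. Whether another gene's TSS was nearer to the summit is not given here for the genes of these lists, apart from Fum1. Of 10 regulators of mitochondrial gene expression 7 were bound (70%). They included clu at 14.4 ± 0.961, srl, the fly relative of the PGC-1 coactivators, at 8.08 ± 1.69, ERR, an orphan nuclear receptor, at 2.80 ± 1.43 and ewg, the relative of vertebrate NRF-1, at 2.26 ± 0.0256 (SD, n = 3 each), with Max, crc and sima, the last with a peak at the summit in replicate 1 alone. Of these 10 genes 5 have 2 or more TSSs, as have 0 of the 13 genes for mitochondrial DNA. Among the carriers and pores it was 8 of 16. Mitochondrial ribosomal protein genes, the other large nuclear set for this organelle, had 24 of 73 bound (32.9%, 95% exact interval 22.3% to 44.9%), with a median signal of 639.8 at those bound; the intervals of the sets overlap and no test of the difference was made.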

How the data were processed

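ChIP-seq peak lists of 3 replicates of 1 group were used. Per the text notes deposited with each replicate, the authors called peaks on dm6 for each replicate alignment and for the pooled alignments, each against 1 control alignment, and derived the IDR set from these lists. Which aligner, peak caller and IDR cutoff were used is not given in the sources used here. The deposited signal is the caller's value per peak and was used within a list, or over that list's median. The deposited −log10 q-values share a ceiling and were not used to rank. A summit is the deposited start plus the summit offset.

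Genes came from Ensembl release 115 (19607 TSSs, 6 arms) and sequence from RefSeq's genome, both on the dm6 assembly. The gene calls were tested on planted summits. Python 3.11.15, NumPy 2.4.6, pandas 2.3.3, SciPy 1.17.1 and Matplotlib 3.10.9 were used. Exact intervals are Clopper-Pearson. With 1 group no test between conditions exists, and no set test was made.

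Genes named are all bound ones, the 6 unbound ones of highest pooled signal, those with an IDR summit up to 250 bp beyond the window, L-named copies with their counterparts, bound genes of the 5 lists and genes at a shared summit; ND-75, UQCR-C1, UQCR-C2, ATPsynF, other unbound subunits and the unbound genes of the lists were added after their values were seen. The members and lists were chosen with earlier results of these data known. Older symbols served to place 8 of the listed names, and 2 were not found.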

Additional observations from a re-analysis of the deposited data

How the results depend on the processing

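The count of 16 bound genes was 16 with a window of 250 bp (all genes 24.7%), 20 with 1000 bp (31.2%), 15 with the most upstream TSS alone (24.7%), 12 when each summit was given only to its nearest gene (24.0%), and 13, 17 and 12 in the top lists of replicates 1, 2 and 3 (27.2%, 28.9% and 27.2%). Requiring a summit in the top lists of both other replicates gave 11 to 12, beside 24.5% to 24.9% of all genes, and the 11 (14.3%, exact interval 7.35% to 24.1%) came without replicate 1 and without replicate 3. In the 4333 IDR peaks of highest signal it was 6, beside 18.0% of all genes. These were 3 in complex I, 0 in complexes II and III, 1 in complex IV, 1 in complex V and Cyt-c-p. TTCGG was at 0 of the 6 summits in these peaks, and at 4 of the 16 summits of the full IDR set with 100 bp on each side. The shares of all bound genes at these settings are not given here. The share of all genes thus lay above the interval of the 77 genes in the 4333 highest peaks (7.79%, interval 2.91% to 16.2%), without replicate 1, without replicate 3 and in the top lists of replicates 1 and 3, and inside it otherwise. For the 60 genes other than L-named copies it lay inside under each of these alternatives, but leaving out copies without a call can only raise the share. The nearest-gene rule dropped ND-42, ND-MWFE, ATPsyngamma and ATPsynCF6, which left 1 in complex V. In complex II the top list of replicate 2 gave 2 and in complex III that of replicate 1 gave 2. In complex IV the count was 2 to 3 with a replicate left out: COX5A and COX7C were lost without replicate 1 and without replicate 3, and COX7C without replicate 2. The relaxed count of 32 ranged from 25 (the 15000 pooled peaks of highest signal) to 37 (1000 bp), beside 34.6% and 43.7% of all genes. The L-named copies had 0 bound under each alternative but the window of 1000 bp, which added COX7CL. The depth of reads is unknown, and genes just under the IDR limit may change sides with deeper data. No paired analysis was possible because the labels give 1 group.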
